A study of Mus musculus with 4 samples.

Results

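The genes described here are 34 genes of cholesterol and fatty acid synthesis, their control by the SREBP transcription factors, and the uptake, transport and efflux of sterols. They were chosen by gene name as members of these pathways, with earlier results of these data known, so counts over them are descriptions. All 34 were among the 24346 gene symbols listed in each of 4 RNA sequencing libraries. They fall into 18 genes of sterol synthesis, 5 of SREBP control, 5 of sterol uptake, transport and efflux, and 6 of fatty acid synthesis. The libraries were made from MC38, a mouse cell line labelled as a colorectal cancer model, and 2 were labelled wild type (WT) and 2 Arid5a knockout (KO). The labels name no treatment or time, and they do not say how the knockout was made, which bases it removed, whether the knockout line was 1 clone, or whether the 2 libraries of a group came from separate cultures. P-values therefore set the difference between the groups against the spread between libraries of a group, which may be only technical. KPC cells, which the design of the series also names, were not analysed here.

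Cells make cholesterol from acetyl-CoA through mevalonate, farnesyl diphosphate, squalene and lanosterol, and they make fatty acids from acetyl-CoA through malonyl-CoA. SREBP2, encoded by Srebf2, mainly drives genes of sterol synthesis and uptake, and SREBP1, encoded by Srebf1, mainly those of fatty acid synthesis. When membrane sterols are low, the escort protein SCAP carries the SREBP precursors to the Golgi for cleavage, and when sterols are high, INSIG proteins hold SCAP in the endoplasmic reticulum. SREBPs bind promoters together with the general factors NF-Y and Sp1, while LXR receptors, which sense oxysterols, drive efflux genes such as Abca1 and also Srebf1.

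Arid5a, which encodes an RNA-binding protein of the AT-rich interaction domain family, was at 0.225 and 0.124 FPKM (fragments scaled to transcript length in kilobases and to the mapped fragments of the library) in the WT-labelled libraries. It was at 2.16 and 1.77 FPKM in the KO-labelled ones. Both KO-labelled values lay above both WT-labelled values, which goes against the label. No test is given, because Arid5a passed the filter on low values only through the KO-labelled libraries. Directions below are those of the libraries labelled KO relative to the libraries labelled WT. An exchange of the labels would turn every direction, and was not tested. Estimated depth was 9500000 to 14200000 fragments per library. None of 10 markers of colon epithelium reached a mean of 1 FPKM, and Epcam, Cdx1 and Cdx2 were listed at 0 in all 4 libraries, whereas 4 of 5 fibroblast markers did. The fibroblast markers summed to 15.4 and 14.4 FPKM against 12.8 and 13.3 FPKM, with Dcn at 5.13 and 4.53 FPKM against 0.613 and 0.993 FPKM and Col1a1 at 0.275 and 0.246 FPKM against 2.14 and 1.95 FPKM. The summed level of 8 leukocyte markers, of which 4 were at 0, Cd3e, Itgam and Adgre1 among them, was 7.05 and 7.11 FPKM in the WT-labelled libraries and 1.65 and 1.94 FPKM in the KO-labelled ones, mostly from Cd68. A change in the number of such cells and a change in RNA per cell cannot be told apart in bulk RNA, and the part of these markers in the results was not tested. The 4 adipocyte markers and the 3 hepatocyte markers, from cell types rich in these pathways, were all below a mean of 1 FPKM.

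Of the genes tested, 14 of 17 for sterol synthesis, 3 of 5 for SREBP control, 1 of 4 for uptake, transport and efflux and 4 of 6 for fatty acid synthesis were higher in the KO-labelled libraries. Of the 34 genes, 32 passed the filter on low values (1 FPKM or more on average over all 4 libraries). Of these, 22 were called higher, 2 were called lower (Ebp and Npc1) and 8 were not called. A gene was called where its p, adjusted by Benjamini-Hochberg over all genes tested, was under 0.05. The groups differed in many other genes: of 10827 genes tested, 47.6% were called, 24.4% as higher and 23.3% as lower. In 25 of the 32 genes both KO libraries lay above both WT libraries, against 39.4% of all genes tested, and in 4 of them both lay below, against 38.2%. The median log2 change was 0.27 over the 32 genes and 0.01 over all genes tested. In level, the 32 genes had a median percentile of 79.8 among all genes tested, and the shares were not matched for level. Log2 changes are on the scale of log2(FPKM + 1), are given as KO minus WT with their standard error (SE), and were tested with limma. Where levels are set against each other, the values of WT replicates 1 and 2 come first and those of KO replicates 1 and 2 second.

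**Figure D1:**
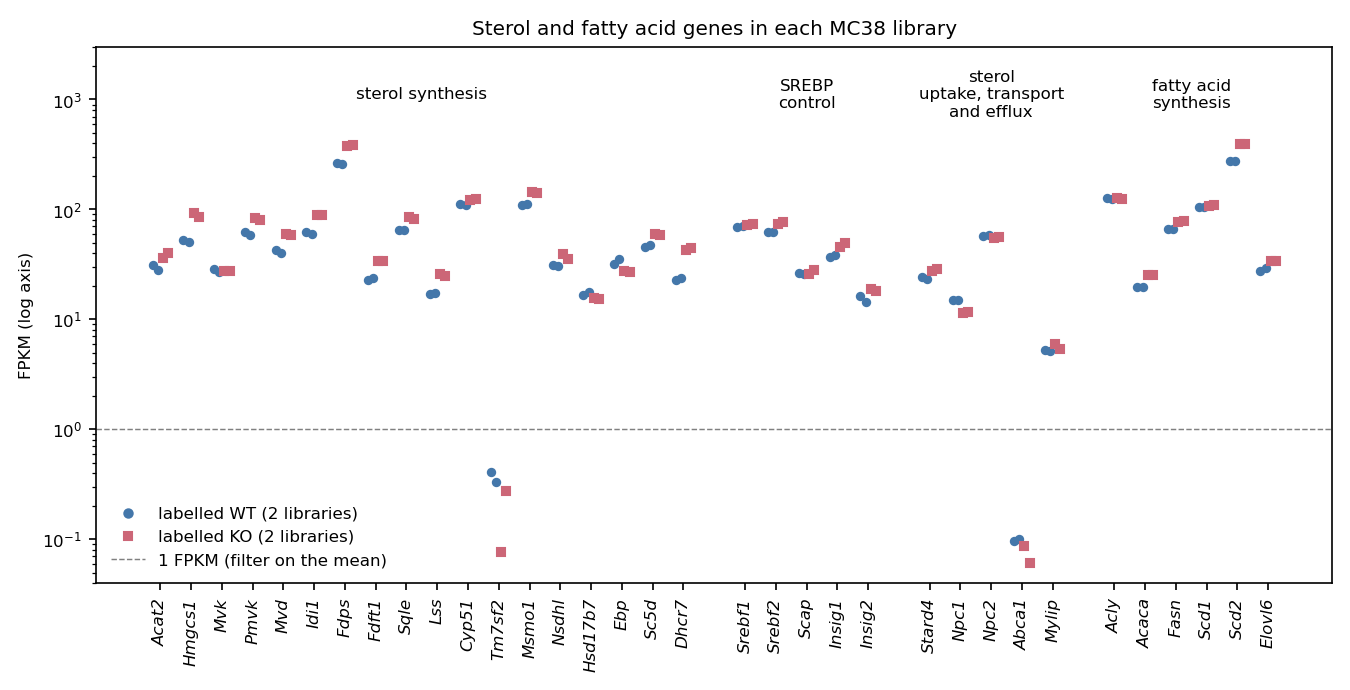
Level of each of the 34 genes in each library, in FPKM on a log axis, by role; circles are the 2 libraries labelled WT, squares the 2 labelled KO, and the dashed line is 1 FPKM. Fdps and Scd2 were the most abundant genes, Tm7sf2 and Abca1 lay below the line, and the 2 libraries of a group mostly lay close together.

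Among the 34 genes, 7 encode enzymes on the route to farnesyl diphosphate. These rose almost together: 6 of 7 were called higher, beside 24.4% of all genes tested. The median log2 change of the 7 was 0.50. Hmgcs1, the cytosolic HMG-CoA synthase (chr13:119690379-119708260, plus strand, GRCm38), was at 53.2 and 50.8 FPKM in the WT-labelled libraries and at 92.4 and 85.7 FPKM in the KO-labelled ones. This was a 1.71-fold difference in mean level, with a log2 change of 0.76 ± 0.049 (adjusted p = 0.000415). Fdps, farnesyl diphosphate synthase (chr3:89093588-89101959, minus strand), was the most abundant gene of the branch, at 262 and 257 FPKM against 381 and 387 FPKM. Its log2 change was 0.57 ± 0.026 (adjusted p = 0.000182). In both genes the groups were far apart relative to the spread within them.

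The enzymes of this group that act between these steps mostly moved by similar amounts. Mevalonate diphosphate decarboxylase, Mvd, was at 42.6 and 40.4 FPKM against 59.5 and 58.9 FPKM (log2 change 0.50 ± 0.039, adjusted p = 0.000702). Idi1, the isopentenyl diphosphate isomerase, was at 62.2 and 60.1 FPKM against 89.4 and 88.3 FPKM (log2 change 0.53 ± 0.033, adjusted p = 0.000376). Phosphomevalonate kinase, Pmvk, was at 62.1 and 59.2 FPKM against 84.0 and 80.2 FPKM (log2 change 0.43 ± 0.041, adjusted p = 0.00129). The exception was mevalonate kinase, Mvk (chr5:114444269-114460591, plus strand), which acts just before Pmvk: its levels were 28.5 and 26.8 FPKM against 27.4 and 27.3 FPKM. The KO libraries lay between the WT libraries, and the log2 change was -0.01 ± 0.045 (95% interval -0.13 to 0.10, adjusted p = 0.812). The ratio of Hmgcs1 to Mvk within a library was therefore 1.86 and 1.90 in the WT-labelled libraries and 3.37 and 3.14 in the KO-labelled ones.

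Acat2, the cytosolic thiolase that makes acetoacetyl-CoA, was at 31.3 and 28.3 FPKM against 36.3 and 40.3 FPKM (log2 change 0.35 ± 0.072, adjusted p = 0.0129). The call was lost when WT replicate 2 was left out (adjusted p = 0.0571). Its level is uncertain, because 39.1% of the 50-base stretches of its transcripts also occur in those of its near-copy Acat3. Acat3 was at 55.4 and 52.3 FPKM against 59.4 and 59.7 FPKM, and the summed level of Acat2 and Acat3 was 86.6 and 80.6 FPKM against 95.7 and 100.1 FPKM. Fdps and Idi1 share 26.2% and 17.7% of their stretches with other transcripts, mostly of predicted genes, so that their levels too depend on how shared reads were assigned.

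From farnesyl diphosphate to cholesterol, 8 of 11 genes were called higher, Ebp was called lower, Hsd17b7 was not called and Tm7sf2 was below the filter. The median log2 change of the 10 tested was 0.35. Over all genes tested, 24.4% were called higher and 23.3% lower. Dhcr7, the 7-dehydrocholesterol reductase that makes cholesterol in the last step (chr7:143823145-143848410, plus strand), had the highest log2 change of all 32 genes. It was at 22.9 and 24.0 FPKM in the WT-labelled libraries and 42.6 and 44.7 FPKM in the KO-labelled ones, a 1.86-fold difference with a log2 change of 0.87 ± 0.045 (adjusted p = 0.000246). No KO library came near the WT range.

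The enzymes that make and cyclise squalene also rose. Squalene synthase, Fdft1, was at 23.0 and 24.0 FPKM against 34.3 and 34.2 FPKM (log2 change 0.52 ± 0.040, adjusted p = 0.000696). Lanosterol synthase, Lss, was at 17.0 and 17.3 FPKM against 25.6 and 24.7 FPKM (log2 change 0.53 ± 0.044, adjusted p = 0.000858). Between them acts squalene epoxidase, Sqle, which is regarded as a rate-limiting enzyme of the pathway: it was at 64.7 and 64.5 FPKM against 85.7 and 82.3 FPKM (log2 change 0.37 ± 0.034, adjusted p = 0.00109). The annotated span of Fdft1 overlaps that of Ctsb on the opposite strand over 774 bases. Ctsb was at 113 and 111 FPKM against 75.5 and 75.7 FPKM. Whether the authors' values used strand is not given in the sources used here.

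Among the enzymes that turn lanosterol into cholesterol the changes were smaller, apart from Dhcr7. Cyp51, lanosterol demethylase, was at 112 and 111 FPKM against 122 and 124 FPKM, a 1.11-fold difference, and was not called without WT replicate 2 (log2 change 0.14 ± 0.028, adjusted p = 0.0106 with it and 0.0593 without it). Methylsterol monooxygenase, Msmo1, was at 111 and 112 FPKM against 144 and 140 FPKM (log2 change 0.35 ± 0.029, adjusted p = 0.000858). Sc5d, the lathosterol oxidase that acts just before Dhcr7, was at 45.7 and 47.4 FPKM against 59.7 and 58.9 FPKM (log2 change 0.34 ± 0.035, adjusted p = 0.00153). Nsdhl, the decarboxylating sterol dehydrogenase, was at 31.3 and 30.6 FPKM against 39.5 and 35.5 FPKM, with the KO libraries less alike than in most of these genes. Its log2 change was 0.27 ± 0.059 (adjusted p = 0.0164), and it was not called without WT replicate 1 or without WT replicate 2 (adjusted p = 0.0533 and 0.0772).

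Ebp, the sterol isomerase between the demethylating enzymes and Sc5d (chrX:8185329-8193512, minus strand), went the other way. It was at 31.6 and 35.2 FPKM in the WT-labelled libraries and 27.5 and 27.1 FPKM in the KO-labelled ones, a log2 change of -0.28 ± 0.058 (adjusted p = 0.0143). The call was lost without WT replicate 2 and when KO replicate 2 was left out (adjusted p = 0.0516 and 0.0523). The ratio of Dhcr7 to Ebp within a library was 0.723 and 0.682 in the WT-labelled libraries and 1.55 and 1.65 in the KO-labelled ones. Hsd17b7, the 3-ketosteroid reductase, was at 16.6 and 17.8 FPKM against 15.7 and 15.3 FPKM. Both its KO values lay below both WT values, but it was not called (log2 change -0.14 ± 0.054, 95% interval -0.27 to -0.003, adjusted p = 0.0836). Tm7sf2, a sterol reductase of the same stretch, was at 0.410 and 0.334 FPKM against 0.0764 and 0.275 FPKM, an estimated 9 fragments or fewer in each library. It overlaps Vps51 on the same strand over 532 bases, so even these fragments may belong to either gene.

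**Figure D2:**
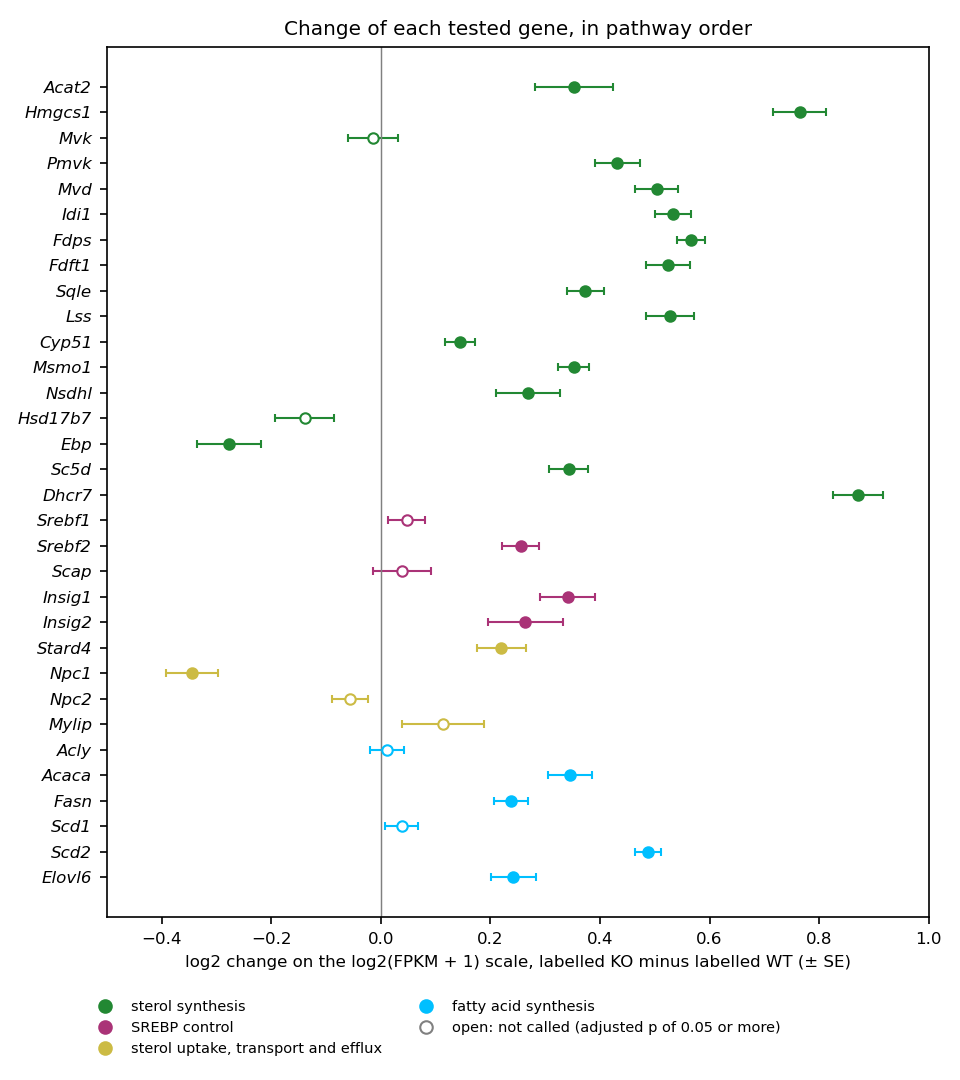
Log2 change (KO minus WT, on the scale of log2(FPKM + 1)) of each of the 32 genes that passed the filter, with its SE, by role and in pathway order; filled points were called and open points were not. Dhcr7 and Hmgcs1 stood highest, at 0.87 and 0.76, and Npc1 and Ebp lowest, at -0.34 and -0.28.

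Promoter sequences, the stretches before each start site, are given for genes of sterol synthesis that rose and that did not, because they share a motif. RefSeq promoter sequences (GRCm38.p6) were matched for 27 of the 34 genes, with 35 start sites in all; Fdps, Fdft1, Sqle, Stard4, Npc1, Scd1 and Scd2 were not matched. The 250 bases before each start were searched on both strands for CCAAT (the NF-Y motif), TCACNCCAC (a sterol regulatory element), GGGCGG (the Sp1 motif) and CACGTG (the E-box). Stretches of 150 bases of 3 genes that rose follow, with CCAAT or its reverse complement ATTGG, and matches to TCACNCCAC, in capitals.
Hmgcs1, chr13:119690143-119690292, plus strand: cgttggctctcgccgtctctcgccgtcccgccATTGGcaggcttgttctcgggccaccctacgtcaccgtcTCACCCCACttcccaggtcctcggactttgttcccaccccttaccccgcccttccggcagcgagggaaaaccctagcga
Mvd, chr8:122443423-122443572, minus strand: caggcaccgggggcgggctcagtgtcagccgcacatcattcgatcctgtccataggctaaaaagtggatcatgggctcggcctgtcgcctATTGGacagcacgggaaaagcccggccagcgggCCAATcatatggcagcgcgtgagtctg
Lss, chr10:76531455-76531604, plus strand: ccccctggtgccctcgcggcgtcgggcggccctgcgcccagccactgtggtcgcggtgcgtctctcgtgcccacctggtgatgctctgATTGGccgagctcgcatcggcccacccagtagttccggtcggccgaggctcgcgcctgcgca
Hmgcs1 was the only one of the 27 genes with a match to TCACNCCAC, which was found in 0.952% of 10611 promoters of genes tested and in 1.05% of all 32851 promoters. No other form of a sterol regulatory element was searched for, so a gene without a match may still hold one. Further CCAAT matches of Hmgcs1 lie outside the stretch shown.

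CCAAT was found before 14 of 15 sterol synthesis genes with a promoter (93.3%), Acat2 being the exception, and in 14 of their 18 promoters (77.8%). For Msmo1, Idi1 and Tm7sf2, a stretch of 150 of the searched bases lies wholly in annotated exons. In such a stretch of Cyp51 and Nsdhl, 49 and 41 bases do. Matches counted in these genes may therefore lie in transcribed sequence. Dhcr7 had CCAAT only before a start site within the gene, and not before its other start sites. Of all genes tested with a promoter 41.7% had it, as did 36.1% of their promoters, and over all genes with a promoter these shares were 37.5% and 33.8%. Of the 4 fatty acid synthesis genes with a promoter, Fasn had it. The only start site matched for Acaca lies within the gene, so the bases before its annotated beginning were not searched. For Elovl6, 129 of the 150 bases before the start lie in annotated exons. The branches are therefore not set against each other for this motif. The sterol genes that did not rise had CCAAT too, as the stretches of Mvk, Hsd17b7 and Ebp show. CACGTG of Hsd17b7 is also in capitals, and in Fasn a CCAAT and an ATTGG overlap.
Mvk, chr5:114444104-114444253, plus strand: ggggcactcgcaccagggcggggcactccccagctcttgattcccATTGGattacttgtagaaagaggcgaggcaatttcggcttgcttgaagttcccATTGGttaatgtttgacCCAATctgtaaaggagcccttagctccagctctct
Hsd17b7, chr1:169969216-169969365, minus strand: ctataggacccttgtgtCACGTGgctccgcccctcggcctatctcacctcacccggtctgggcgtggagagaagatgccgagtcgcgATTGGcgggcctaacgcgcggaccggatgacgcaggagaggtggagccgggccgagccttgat
Ebp, chrX:8193547-8193696, minus strand: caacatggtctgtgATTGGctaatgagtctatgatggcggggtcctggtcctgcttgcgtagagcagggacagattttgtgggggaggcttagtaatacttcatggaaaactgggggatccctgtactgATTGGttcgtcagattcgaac
Fasn, chr11:120824548-120824697, minus strand: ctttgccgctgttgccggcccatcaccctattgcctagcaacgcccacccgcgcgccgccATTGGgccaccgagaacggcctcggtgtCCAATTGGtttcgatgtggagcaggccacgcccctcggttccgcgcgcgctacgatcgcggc
Mvk held 5 matches to CCAAT, of which 3 are in the stretch shown, Hsd17b7 held 3, of which 1 is shown whole, and Ebp held 2. GGGCGG was found in 74.3% of the 35 promoters, against 59.3% of those of genes tested, and CACGTG in 17.1% against 8.48%. A match is a run of letters, not a measured binding site, and factor binding was not measured here.

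**Figure D3:**
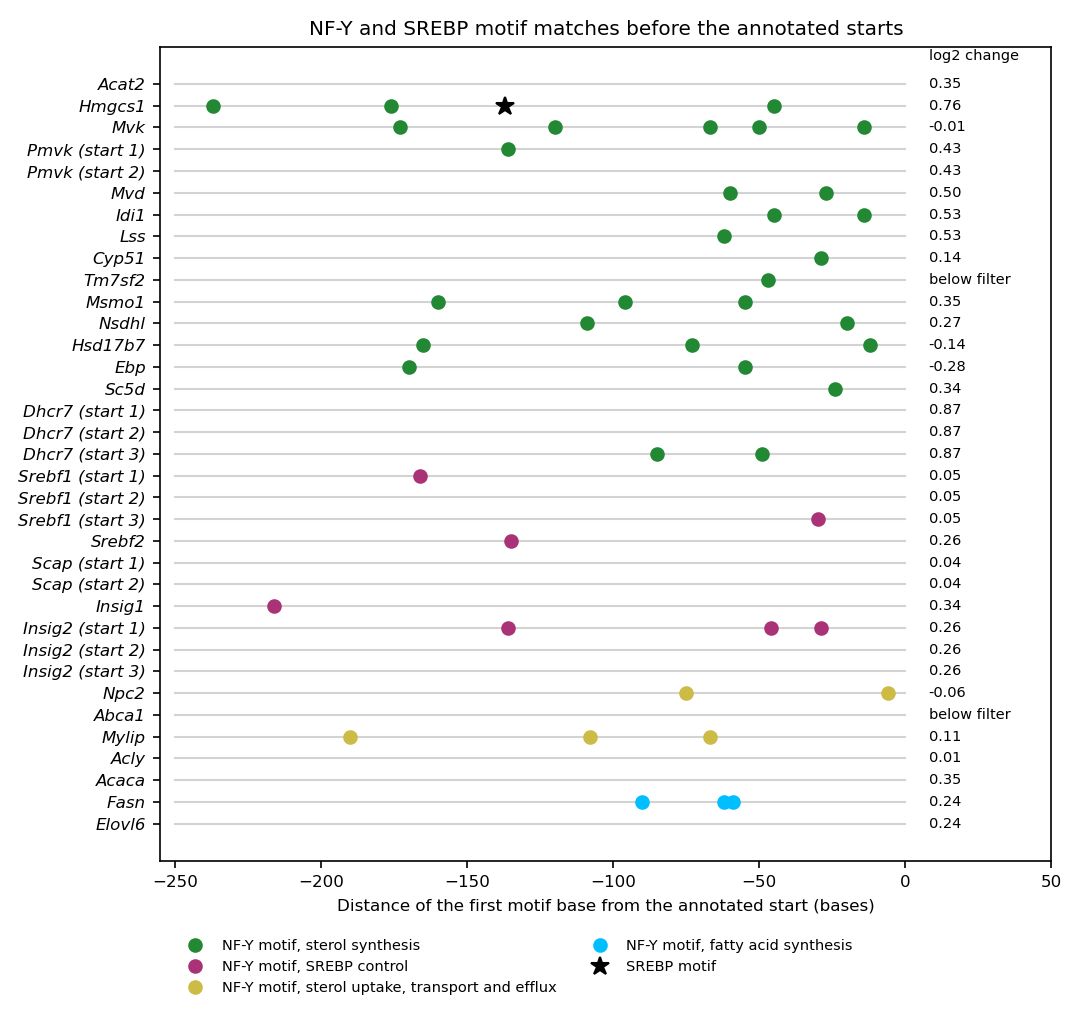
Positions of matches to CCAAT (circles, coloured by role) and TCACNCCAC (star) on either strand in the 250 bases before each start site, in bases from the start (0), with the log2 change of the gene at the right. Matches to CCAAT recur in promoters of sterol synthesis genes, including those of Mvk, Hsd17b7 and Ebp, and Hmgcs1 holds the only match to TCACNCCAC.

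Of the 5 genes of SREBP control, Srebf2 and both INSIG genes were called higher, beside 24.4% of all genes tested. Srebf1 and Scap were not called. Srebf2 (chr15:82147181-82205379, plus strand) was at 62.6 and 62.2 FPKM in the WT-labelled libraries and 73.2 and 76.2 FPKM in the KO-labelled ones, a 1.20-fold difference (log2 change 0.26 ± 0.034, adjusted p = 0.00343). Srebf1 (chr11:60199089-60222581, minus strand) was at 69.5 and 71.2 FPKM against 71.6 and 73.9 FPKM. The KO libraries lay just above the WT libraries, and the log2 change was 0.05 ± 0.034 (95% interval -0.04 to 0.13, adjusted p = 0.289). The ratio of Srebf2 to Srebf1 within a library was 0.900 and 0.874 in the WT-labelled libraries and 1.02 and 1.03 in the KO-labelled ones. The files give 1 value per gene, so the SREBP1 isoforms a and c were not separated, and RNA levels say nothing of SREBP cleavage.

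Insig1 (chr5:28071363-28078662, plus strand), a direct SREBP target whose product retains SCAP, was at 36.6 and 38.4 FPKM against 46.0 and 49.6 FPKM (log2 change 0.34 ± 0.051, adjusted p = 0.00474). Insig2, the INSIG gene that depends less on SREBP, was at 16.3 and 14.4 FPKM against 19.0 and 18.2 FPKM (log2 change 0.26 ± 0.069, adjusted p = 0.0277). Its call was lost without WT replicate 2, KO replicate 1 or KO replicate 2 (adjusted p = 0.106, 0.0948 and 0.0560) and with no filter (adjusted p = 0.0517). The ratio of Insig1 to Insig2 overlapped between the groups, at 2.25 and 2.66 against 2.41 and 2.73. Scap was at 26.5 and 25.9 FPKM against 25.8 and 28.1 FPKM, so that the groups overlapped (log2 change 0.04 ± 0.053, 95% interval -0.10 to 0.17, adjusted p = 0.57).

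The 5 genes of uptake, transport and efflux showed no common direction. Npc1, the lysosomal membrane protein that exports cholesterol taken up with lipoproteins (chr18:12189692-12236400, minus strand), was at 14.9 FPKM in each WT-labelled library and at 11.4 and 11.7 FPKM in the KO-labelled ones. This was the lowest log2 change of the 32 genes, -0.34 ± 0.047 (adjusted p = 0.00369). Npc2, its soluble partner, was at 57.7 and 58.2 FPKM against 54.9 and 56.5 FPKM (log2 change -0.06 ± 0.033, 95% interval -0.14 to 0.03, adjusted p = 0.215). The ratio of Npc2 to Npc1 was 3.87 and 3.90 against 4.81 and 4.85. Stard4, a cytosolic sterol carrier, was at 24.2 and 23.4 FPKM against 27.3 and 28.6 FPKM (log2 change 0.22 ± 0.045, adjusted p = 0.0128), but the call was lost when WT replicate 2 or KO replicate 2 was left out (adjusted p = 0.0720 and 0.0520).

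The LXR targets Mylip and Abca1 were, with Tm7sf2, the least abundant of the 34 genes. Mylip, the ubiquitin ligase also known as IDOL that degrades lipoprotein receptors, was at 5.25 and 5.17 FPKM against 6.02 and 5.42 FPKM (log2 change 0.11 ± 0.075, 95% interval -0.08 to 0.30, adjusted p = 0.256). Abca1, the cholesterol efflux pump, was at 0.0971 and 0.101 FPKM against 0.0870 and 0.0609 FPKM and was below the filter. These levels correspond to an estimated 14 and 11 fragments against 8 and 7. Both KO values lay below both WT values, but so few fragments cannot settle whether Abca1 differed, and no test is given.

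Of the 6 fatty acid synthesis genes, 4 were called higher and none lower, beside 24.4% and 23.3% of all genes tested. The median log2 change of the 6 was 0.24. Acaca, acetyl-CoA carboxylase, which makes malonyl-CoA (chr11:84129672-84401651, plus strand), was at 19.5 and 19.9 FPKM against 25.5 and 25.1 FPKM (log2 change 0.35 ± 0.040, adjusted p = 0.00223). Of its 50-base stretches 30.4% also occur in transcripts of other genes. Fasn, fatty acid synthase (chr11:120805846-120824547, minus strand), was at 66.3 and 66.0 FPKM against 77.2 and 79.3 FPKM (log2 change 0.24 ± 0.031, adjusted p = 0.00326). Elovl6, which elongates palmitate, was at 27.8 and 29.1 FPKM against 33.9 and 33.7 FPKM (log2 change 0.24 ± 0.041, adjusted p = 0.007). Acly, which supplies cytosolic acetyl-CoA to both branches (chr11:100476353-100528000, minus strand), was at 127 and 124 FPKM against 128 and 124 FPKM. Its groups overlapped (log2 change 0.01 ± 0.031, 95% interval -0.07 to 0.09, adjusted p = 0.77).

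The stearoyl-CoA desaturases Scd1 and Scd2, which are neighbours on chromosome 19 and make monounsaturated fatty acids, are given side by side. Scd2 (chr19:44293674-44306864, plus strand) was at 279 and 278 FPKM in the WT-labelled libraries and 391 and 390 FPKM in the KO-labelled ones, a 1.40-fold difference (log2 change 0.49 ± 0.024, adjusted p = 0.000202). Scd1 (chr19:44394455-44407879, minus strand) was at 105 FPKM in each WT-labelled library and at 107 and 110 FPKM in the KO-labelled ones (log2 change 0.04 ± 0.030, 95% interval -0.04 to 0.11, adjusted p = 0.327). The ratio of Scd2 to Scd1 was 2.64 and 2.65 in the WT-labelled libraries and 3.67 and 3.56 in the KO-labelled ones. Their transcripts share few stretches: 2.66% of the 50-base stretches of Scd2 occur in Scd1. The difference between the changes of Scd1 and Scd2 was not tested.

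The branches were also set side by side by their summed levels. The summed level of the 18 sterol synthesis genes was 1018 and 1005 FPKM in the WT-labelled libraries and 1368 and 1355 FPKM in the KO-labelled ones, a ratio of 1.35. The summed level of the 6 fatty acid synthesis genes was 624 and 622 FPKM against 762 and 762 FPKM, a ratio of 1.22. Within a library the sterol sum was 1.63 and 1.62 times the fatty acid sum in the WT-labelled libraries and 1.79 and 1.78 times in the KO-labelled ones. Much of the fatty acid sum came from Scd2, without which its ratio was 1.08, and the sterol sum without Fdps had a ratio of 1.30. Within the sterol branch, the sum of the genes up to farnesyl diphosphate had a ratio of 1.45 and the sum of the later genes 1.23. The 5 SREBP control genes summed to 211 and 212 FPKM against 236 and 246 FPKM, and the 5 transport genes to 102 and 102 FPKM against 99.7 and 102 FPKM. These sums are descriptions, and the difference between the branches was not tested.

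**Figure D4:**
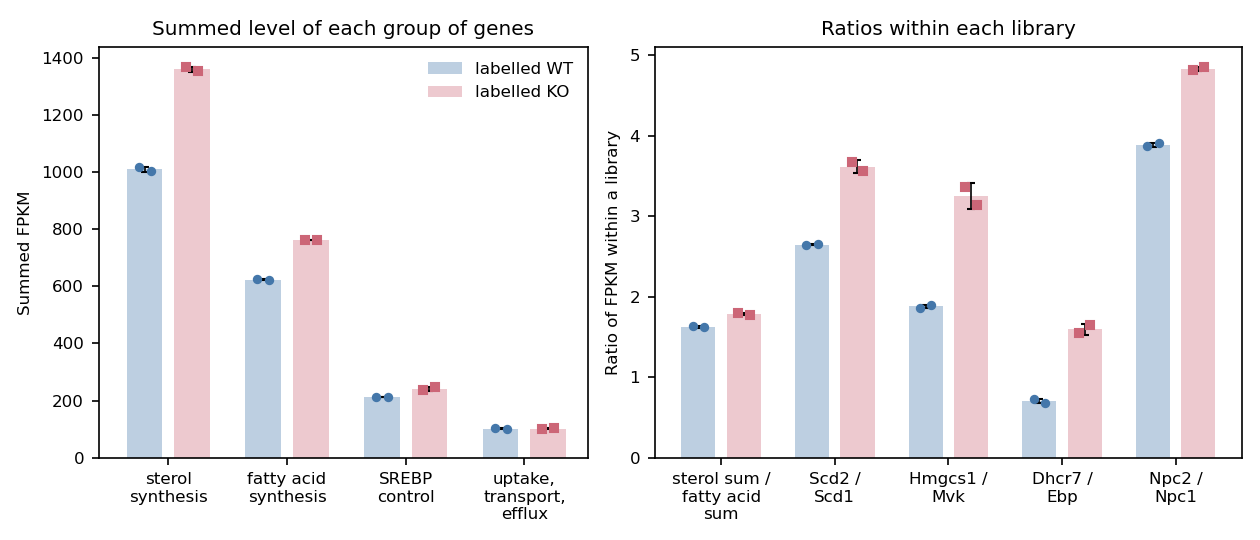
Summed FPKM of each role group, and ratios between genes or sums within a library, for each library (circles, labelled WT; squares, labelled KO), with bars at the mean and error bars of 1 SD over 2 libraries. The KO libraries were higher in the sterol and fatty acid sums, and in the 5 ratios shown.

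Other genes of the same pathways, taken from 4 lists by function, did not all follow. The 12 other sterol and isoprenoid genes tested had a median log2 change of -0.01. Of them, 2 were called higher and none lower, beside 24.4% and 23.3% of all genes tested. Among the former was Pdss1 of ubiquinone synthesis, at 13.3 and 13.4 FPKM against 18.2 and 16.6 FPKM (log2 change 0.36 ± 0.059, adjusted p = 0.00651). Of 18 genes of uptake, esterification, efflux and sterol sensing tested, 4 were called higher and 6 lower (median -0.09), beside 24.4% and 23.3% of all genes tested. The lipoprotein receptor Vldlr rose, by 0.45 ± 0.060 (log2; adjusted p = 0.00345). Soat1, Lipa and Nceh1, which handle cholesteryl esters, fell. Soat1, which esterifies cholesterol, was at 46.9 and 50.2 FPKM against 33.6 and 33.1 FPKM, and the lysosomal lipase Lipa was at 23.6 and 23.5 FPKM against 15.5 and 16.0 FPKM. Their log2 changes were -0.53 ± 0.045 and -0.55 ± 0.042 (adjusted p = 0.000936 and 0.000678), and that of the ester hydrolase Nceh1 was -0.61 ± 0.088 (adjusted p = 0.00436).

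Of 12 genes that process or turn over SREBP and INSIG, 2 were called higher and 4 lower (median 0.03), beside 24.4% and 23.3% over all genes tested. About as large a share was called as over all genes, 47.6%. Mbtps1, the site-1 protease that makes the first cut in SREBP precursors, was at 65.3 and 64.1 FPKM against 45.3 and 44.5 FPKM (log2 change -0.52 ± 0.033, adjusted p = 0.000411). The largest rise on this list was that of Lpin1, a phosphatidate phosphatase that also restrains SREBP activity, at 4.59 and 5.38 FPKM against 10.4 and 10.2 FPKM (log2 change 0.92 ± 0.082, adjusted p = 0.00109). The sterol-regulated ubiquitin ligase Rnf145 rose by 0.27 ± 0.046 on the log2 scale (adjusted p = 0.00696).

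Of 32 other fatty acid genes tested, 10 were called higher and 6 lower (median 0.10), beside 24.4% and 23.3% of all genes tested. The share called was again near the 47.6% of all genes tested. The 4 genes named here, chosen by largest absolute change, all rose. The 6 called lower had smaller changes, the lowest -0.37 on the log2 scale. Slc25a1 and Me1, which supply citrate and NADPH to the cytosol, were among those called higher. The citrate carrier Slc25a1 was at 56.9 and 54.3 FPKM against 82.6 and 85.6 FPKM (log2 change 0.59 ± 0.039, adjusted p = 0.000469), and malic enzyme Me1 at 68.2 and 69.0 FPKM against 109 and 107 FPKM (log2 change 0.64 ± 0.029, adjusted p = 0.000182). Acsl5, an acyl-CoA synthetase, was at 0.0663 and 0.144 FPKM against 4.06 and 5.26 FPKM. It passed the filter only through the KO-labelled libraries, so no test is given, although the counts and median above include it. Hacd1, an elongation enzyme, rose by 0.55 ± 0.070 (adjusted p = 0.00304). Hacd1 and Pdss1 lie on chromosome 2, whose 832 tested genes had a median log2 change of 0.23, while none of the 32 genes of the main list lies there.

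**Figure D5:**
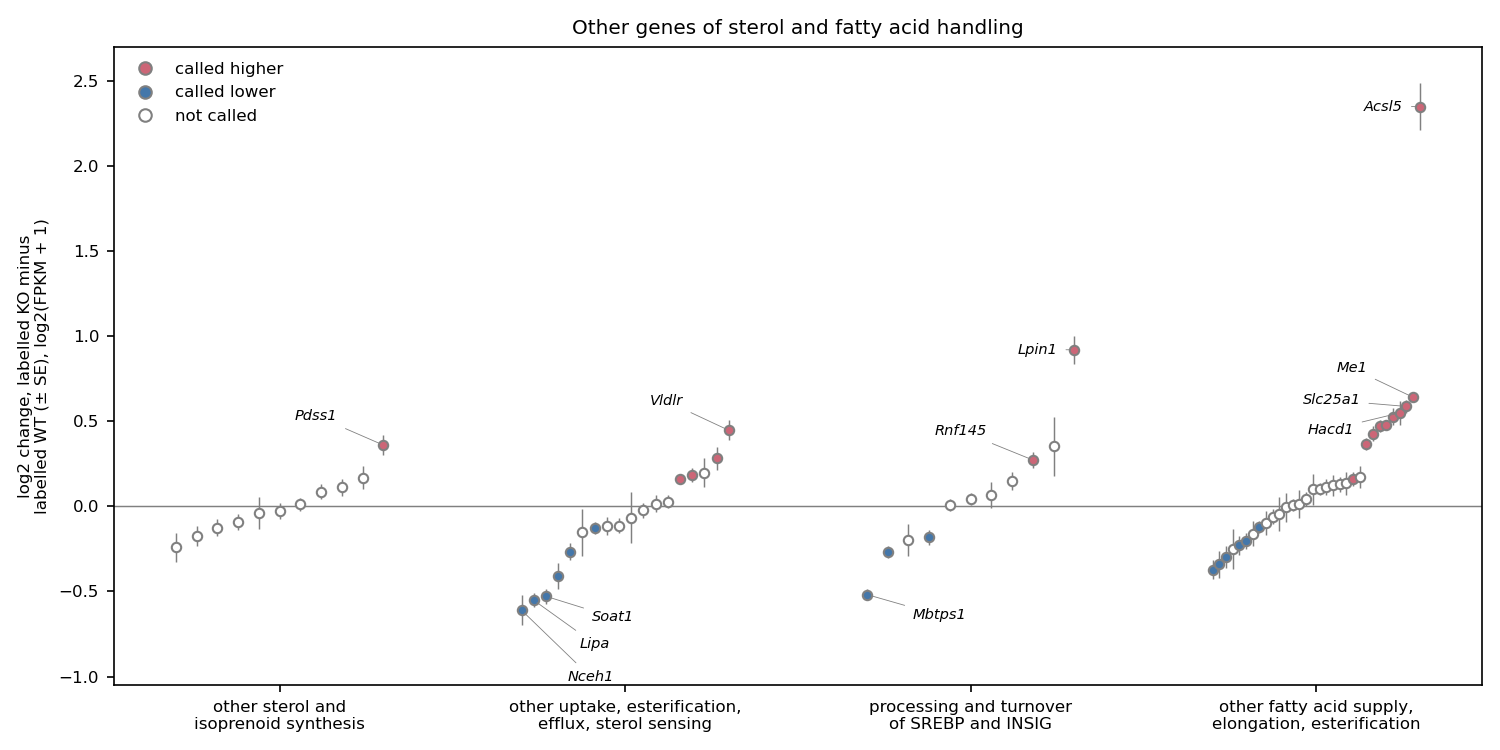
Log2 change (KO minus WT, on the scale of log2(FPKM + 1)) with its SE of tested genes on the 4 lists of other pathway genes (2 are not shown), in order of change within a list; filled points were called and open points were not. Pdss1, Vldlr, Lpin1 and Acsl5 (which passed the filter only through the KO-labelled libraries) stood at the upper ends of their lists and Nceh1 and Mbtps1 at the lower ends of theirs.

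The 32 genes lie on 16 chromosomes, and all kept the sign of their change when the median change of their own chromosome, at most 0.15 in size, was subtracted. Of the 24 genes called, 18 were called under all 13 other settings of the processing that were tried, and the 6 others (Acat2, Cyp51, Nsdhl, Ebp, Insig2 and Stard4) are those named above with the libraries concerned. Without WT replicate 2, 17 genes were called higher and 1 lower. The 8 genes not called were not called under any of the 13.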

How the data were processed

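RNA of MC38 cells was sequenced in 4 libraries, 2 labelled WT and 2 labelled KO. Total RNA came from an RNeasy kit and sequencing libraries from a TruSeq kit for stranded mRNA, per the labels. The authors deposited FPKM values for 24346 gene symbols. The submitters' processing notes name Cufflinks (2.2.1), TopHat2 (2.0.13), Bowtie2 (2.2.3) and SAMtools (0.1.19), with build mm10. Settings, annotation and handling of strand are not given in the sources used here. FPKM corrects for length and depth, but abundant transcripts can shift the rest. Summed over symbols, a library held 600844 to 638120 FPKM.

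Values were transformed to log2(FPKM + 1), which understates changes of low genes. Genes averaging 1 FPKM or more were fitted with limma 3.58.1 (lmFit and eBayes with a trend, R 4.3.3) with no block, in a two-sided test adjusted by Benjamini-Hochberg over all genes tested and called under 0.05. The script was tested on simulated data. Alternatives covered the pseudocount (0.1), the filter (5 FPKM or none), scaling, moderation of the variance, the replicate block and the omission of each library. Named genes were all 34 members, Arid5a, and up to 4 called genes with the largest absolute change from each of 4 lists of other pathway genes; of those lists, Erg28 was not matched, and 2 genes that the rule named are not reported here. Members, lists and tests were chosen with earlier results of these data known. Acat3, Ctsb and Vps51, which share sequence or position with members, and the marker genes given beside them were named after their values were seen.

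Depth was estimated from FPKM values up to 0.1, most of which lie near multiples of what 1 fragment is worth. Between 91.1% and 92.1% of their ratios to WT replicate 1 were, within 1%, those of whole numbers no larger than 6. With transcript lengths from GENCODE M21, and the lowest cluster of values read as 1 fragment, 76.1% of 790 low values were within 5% of whole multiples at the best setting, which gave about 14200000, 10800000, 9500000 and 10500000 fragments. All depths and fragment numbers rest on that reading and on the transcript assumed, and no count model was used. Gene coordinates are from GENCODE M21 (GRCm38). Shared 50-base stretches were counted in its transcripts. Tables and plots were made with pandas 2.3.3, numpy 2.4.6 and matplotlib 3.10.9 in Python 3.11.15.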

Additional observations from a re-analysis of the deposited data

How the results depend on the processing

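No called member changed direction under any of the 13 settings tried, and 6 of 24 lost the call under at least 1. Leaving out 1 library gave 3377 to 4109 genes called over all genes tested, against 5159, with the lowest number without WT replicate 2. The number of sterol synthesis genes called lower ranged from 0 (without WT replicate 2 or KO replicate 2) to 1. The median log2 change of the sterol synthesis genes, 0.37, was 0.36 with no filter or with Acly counted among them, 0.39 with quantile normalization, and 0.37 to 0.42 with 1 library left out. That of the fatty acid synthesis genes, 0.24, was 0.23 to 0.25 with 1 library left out. In an alternative chosen after seeing the data, changes relative to the chromosome median gave 0.47 for sterol and 0.31 for fatty acid synthesis. The labels do not say that replicate numbers pair the libraries; with the replicate block 4673 genes were called, with 22 members higher and 2 lower, so no member's call changed. Deviations of same-numbered libraries correlated at 0.138. Depth limits Tm7sf2 and Abca1, which had a few fragments per library.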
